A study of Rattus norvegicus with 2 samples.

Results

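Oxidative phosphorylation genes were taken from the named genes of the array by their symbols: those beginning with Nduf (complex I), Sdha, Sdhb, Sdhc and Sdhd (complex II), and those beginning with Uqcr (complex III), Cox4 to Cox8 (complex IV) or Atp5 (complex V). There were 80 such genes among 15037 named genes: 40 of complex I, 4 of complex II, 8 of complex III, 14 of complex IV and 14 of complex V. Choosing by symbol also takes in proteins that are no subunits of the finished enzymes. These are the 6 Ndufaf assembly factors of complex I, the ATP synthase inhibitor gene Atp5if1 and Cox7a2l, which encodes a factor that joins complexes III and IV. Ndufa4 carries a complex I name although its protein is now counted as a subunit of complex IV. The complex III subunit cytochrome c1 (Cyc1) and the subunits encoded by mitochondrial DNA fall outside the symbols, and 0 of the subunits from mitochondrial DNA had a named probe. RefSeq lists 118 protein-coding rat genes with matching symbols (assembly GRCr8), and those beyond the 80 were not analysed here.

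The genes were measured in cultured epidermal keratinocytes of newborn rats, 1 whole-transcript oligonucleotide array per group. The siTet2/3 group was transfected with siRNAs against Tet2 and Tet3 at 1 µM each, and the control group is described in the labels as non-treated cells, with the title prefix NC, which they do not explain. Both groups received vitamin C for 12 h and were grown with 10% fetal bovine serum and 0.4 µg/mL hydrocortisone. Vitamin C is described as beginning 24 h after transfection for both groups, but no siRNA is given for the control. Effects of transfection or of siRNA as such therefore cannot be told apart in this pair from those of lowering Tet2 and Tet3. TET enzymes remove methyl marks from DNA by oxidising them, with vitamin C as a cofactor that supports this step, and the comparison asks how siRNAs against Tet2 and Tet3 alter gene expression in cells given vitamin C. Tet2 and Tet3 were not among the named genes, so how far the siRNAs lowered them could not be checked here. With 1 array in each group there is no replicate error and no test, the number of arrays limits the precision of every value, and words such as "higher" apply to this pair of arrays alone.

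The respiratory chain sits in the inner mitochondrial membrane. Complexes I and II pass electrons from NADH and succinate to ubiquinone, complex III passes them on to cytochrome c and complex IV to oxygen. Complexes I, III and IV pump protons as they do so, and complex V, the ATP synthase, lets the protons flow back and makes ATP. Most subunits are encoded in the nucleus, and core subunits that carry the redox centres are distinguished from accessory subunits around them. In the epidermis, basal keratinocytes contain mitochondria that are cleared as the cells cornify.

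Values are log2 signals as deposited, and a difference is the siTet2/3 value minus the control value. Deposited values of named genes reached 19.93, higher than RMA, the method in the submitters' notes, usually gives, so folds are those of the deposited scale, whose making is not fully known. The highest value of an oxidative phosphorylation gene was 15.50, and of the 220 named genes with a mean above it, 26 read the same on both arrays to within 0.005. A gene was taken as above background where its higher value exceeded 5.04 log2 units, the 95th percentile of 1206 chemoreceptor genes, and as differing where its values were at least 1.5-fold apart. Pearson's correlation between the arrays was 0.991 over the 80 genes and 0.989 over all named genes, which are not independent replicates. The medians of the deposited columns were 4.90 (siTet2/3) and 4.85 (control), so differences are relative to the bulk of the probes. The 9 named keratinocyte markers were all above background, among them Krt14 (18.70 on the siTet2/3 array and 18.54 on the control array) and Tp63 (siTet2/3 12.75, control 13.15). The basal keratin gene Krt15 read 11.26 (siTet2/3) and 8.78 (control). Of the markers of other cell types, 0 of 8 for fibroblasts, 0 of 6 for striated muscle, 1 of 6 for immune cells (Cd68, siTet2/3 5.24, control 5.52), 1 of 5 for melanocytes (Mitf, siTet2/3 5.41, control 5.33), 1 of 5 for endothelium (Tek, siTet2/3 9.25, control 9.66) and 3 of 4 for brown fat passed background. The brown fat genes were Cidea (siTet2/3 6.29, control 5.76), Elovl3 (siTet2/3 5.40, control 4.65, below background) and Plin5 (siTet2/3 5.42, control 5.07), all with differences above 0, while the defining marker Ucp1 was below background on both arrays (siTet2/3 2.87, control 3.63). The part of Krt15 or of these markers in the differences below was not tested. Fewer cells of a type and less RNA per cell cannot be told apart in such cultures.

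As a group the oxidative phosphorylation genes differed little between the arrays. Of the 80, 75 were above background, and 65 of these 75 were less than 1.5-fold apart. Higher on the siTet2/3 array by at least 1.5-fold were 3 genes: Atp5po (1.87-fold), Ndufa5 (1.61-fold) and Atp5mg (0.59 log2 units, just past the limit). Lower by at least 1.5-fold were 7 genes: Atp5mc1 (2.19-fold), Ndufs7 (2.03-fold as measured and at least 1.53-fold against the background limit), Uqcrfs1 (1.72-fold), Cox8a (1.57-fold), Ndufb2 (1.55-fold), Ndufb7 (1.55-fold) and Uqcrc1 (1.54-fold). These 10 genes are 13.3% of the 75, where 21.8% of the 8103 named genes above background were at least 1.5-fold apart, 8.63% higher and 13.2% lower. With values below the background limit set to it, the share of all genes was 18.7% and that of the oxidative phosphorylation genes was still 13.3%. After centring on the median difference of all genes the counts were 5 higher and 4 lower. Ndufa10 and Ndufaf8 then passed 1.5-fold and Ndufb2, Ndufb7 and Uqcrc1 no longer did, and the same 5 changes followed from removing a trend on level.

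The median difference of the 75 genes was -0.07 log2 units, beside -0.05 for all 8103 genes, and the interquartile range of the differences was 0.44 log2 units, beside 0.61. A difference below 0 was found in 42 of the 75, or 56.0%, and in 55.0% of all genes. Probes that read low scatter more on these arrays, and the comparison was therefore repeated among genes with a mean signal of at least 8 log2 units. There 2 of 60 oxidative phosphorylation genes were 1.5-fold higher and 4 lower, where 5.70% and 10.3% of 4261 genes were, 16.0% in all. The median difference was -0.02 among these 60 and -0.05 among the 4261, with interquartile ranges of 0.39 and 0.53 log2 units. The 60 were still brighter: their median signal was 11.08 on the siTet2/3 array and 11.02 on the control array. For the 4261 it was 10.14 (siTet2/3) and 10.22 (control). Level was thus not matched, and whether the narrower spread goes beyond level was not tested.

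**Figure D1:**
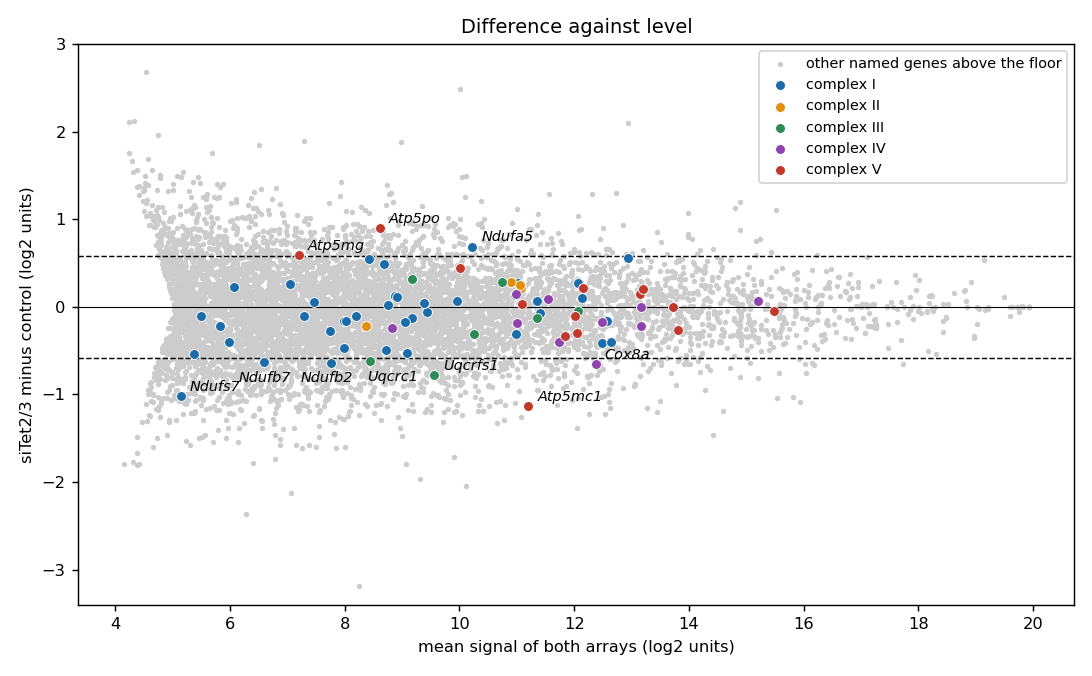
Difference (siTet2/3 minus control, log2 units) against mean signal of both arrays (log2 units) for the 75 oxidative phosphorylation genes above background, coloured by complex, over the other named genes above background in grey. Dashed lines mark 1.5-fold, and the 10 genes beyond them are named, from Atp5mc1 at -1.13 to Atp5po at 0.90.

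The sequences upstream of the genes that differed most, the 2 lowest and the 2 highest of those above background on both arrays, are shown because the study asks about DNA demethylation, which acts at CpG sites, and because nuclear genes of the respiratory chain are known targets of NRF1, of the ETS factor GABP and of YY1. Each is the 250 bases before the transcription start in RefSeq (GRCr8), 5′ to 3′ on the gene's strand, and capitals mark a match to the NRF1 motif.
Atp5mc1, minus strand, chr10:81523346-81523595: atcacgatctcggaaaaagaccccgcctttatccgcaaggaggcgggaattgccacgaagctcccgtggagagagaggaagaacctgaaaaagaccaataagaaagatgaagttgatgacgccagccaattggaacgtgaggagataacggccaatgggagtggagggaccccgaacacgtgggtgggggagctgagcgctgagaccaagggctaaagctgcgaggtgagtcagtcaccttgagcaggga
Uqcrfs1, plus strand, chr17:34186352-34186601: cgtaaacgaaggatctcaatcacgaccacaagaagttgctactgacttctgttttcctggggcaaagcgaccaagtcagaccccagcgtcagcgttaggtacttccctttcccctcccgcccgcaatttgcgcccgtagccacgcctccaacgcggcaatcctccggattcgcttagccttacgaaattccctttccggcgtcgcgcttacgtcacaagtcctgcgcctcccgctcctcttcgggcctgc
Atp5po, minus strand, chr11:44657484-44657733: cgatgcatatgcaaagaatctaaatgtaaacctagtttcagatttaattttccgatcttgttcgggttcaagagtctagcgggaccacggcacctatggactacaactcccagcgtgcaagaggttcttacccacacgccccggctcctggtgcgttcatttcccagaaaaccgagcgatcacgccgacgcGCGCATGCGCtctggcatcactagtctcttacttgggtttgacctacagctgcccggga
Ndufa5, minus strand, chr4:53971236-53971485: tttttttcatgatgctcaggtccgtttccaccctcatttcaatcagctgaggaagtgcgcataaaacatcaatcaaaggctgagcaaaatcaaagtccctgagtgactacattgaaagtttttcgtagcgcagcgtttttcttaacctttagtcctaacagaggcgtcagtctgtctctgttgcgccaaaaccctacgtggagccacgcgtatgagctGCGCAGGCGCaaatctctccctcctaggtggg

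In a window of 300 bases, these 250 and the 50 after the start, Atp5mc1 held 15 CpG dinucleotides, Uqcrfs1 29, Atp5po 21 and Ndufa5 14. Their ratios of observed to expected CpG were 0.659, 1.18, 0.994 and 0.739, all above 0.6, a usual limit for a CpG island. Searched on both strands were the NRF1 motif (GCGC, any base, then TGCGC), the ETS motif CCGGAAG, the YY1 motif AAGATGGC and the TATA motif TATAAA; the ETS and YY1 motifs can overlap through AAG, which happened in 0 of the windows of these genes. Atp5po held an NRF1 match beginning 59 bases before the start and a YY1 match just after it, and Ndufa5 held an NRF1 match beginning 32 bases before the start. Atp5mc1 and Uqcrfs1 held none of the 4 motifs, which says only that these letters are not in the window.

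Windows were found for 71 of the 80 genes, using the first listed start of each gene. The NRF1 motif occurred in 12 of them (16.9%), the ETS motif in 22 (31.0%), the YY1 motif in 14 (19.7%) and the TATA motif in 6 (8.45%). For the 67 of the 71 that were above background the shares were 17.9%, 32.8%, 19.4% and 7.46%. Over the windows of 6839 named genes above background the shares were 11.4%, 20.5%, 6.29% and 6.93%. Over all 27457 genes with a window in RefSeq they were 4.71%, 9.22%, 3.44% and 14.3%. A CpG ratio of at least 0.6 was found for 61 of the 71 genes (85.9%) and for 91.0% of the 67 above background. It was found for 77.0% of the 6839 named genes above background and for 36.9% of all. Among the 67 genes that also passed background, the median difference was -0.03 log2 units for the 12 with the NRF1 motif and -0.10 for the 55 without it. It was -0.14 for the 22 with the ETS motif and -0.07 for the 45 without it. It was -0.22 for the 13 with the YY1 motif and -0.02 for the 54 without it, and 0.22 for the 5 with the TATA motif and -0.11 for the 62 without it. Each of these groups held genes on both sides of 0.

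Counts per complex are to be read beside the shares over all named genes above background, 8.63% higher and 13.2% lower. Complex I, the NADH dehydrogenase, had 39 of 40 genes above background, of which 1 was 1.5-fold higher on the siTet2/3 array, 3 were lower and 35 were neither. Their median difference was -0.11 log2 units, and 0.046 where only genes above 8.31 log2 units, the limit from negative-control probes, were kept.

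The core subunits of the arm that reaches into the matrix were mostly below 0. Of the 6 with a named probe, 5 had a difference below 0, as had 55.0% of all named genes above background. Centring and removal of a trend on level shift differences too little to bring any of these 5 to 0, so they are no test of this count. Ndufs7, whose protein holds the last iron-sulphur cluster before ubiquinone, read 4.63 log2 units on the siTet2/3 array, below the background limit, and 5.65 on the control array. Ndufs8, another iron-sulphur subunit, read 7.76 (siTet2/3) and 8.22 (control), a difference of -0.46. Ndufs1, the largest iron-sulphur subunit, read 12.43 on the siTet2/3 array and 12.84 on the control array, a difference of -0.40. These 3 were lower on the siTet2/3 array, though Ndufs8 and Ndufs1 by less than 1.5-fold. Ndufv2, an iron-sulphur subunit at the entry of the chain, differed by -0.31 and Ndufs3 by -0.27. Ndufv1, which binds NADH and the flavin, read 8.77 (siTet2/3) and 8.74 (control) and so stood apart from the other core subunits. The median of the 6 was -0.36. On neither array did Ndufs7, Ndufs8 or Ndufs3 exceed 8.31 log2 units, the limit from negative-control probes. Of the core genes above that limit, Ndufs1 and Ndufv2 were below 0 and Ndufv1 was not. The count of core genes below 0 therefore rests in part on low signals.

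Accessory subunits surround the core and stabilise it. Of the 12 of the Ndufa series, 6 were below 0 and 6 above it, with a median of 0.00. Ndufa5, an accessory subunit of the matrix arm, read 10.56 log2 units on the siTet2/3 array and 9.88 on the control array. It has 4 pseudogenes in RefSeq, and whether its probe also binds their transcripts was not tested. Ndufa10, on the matrix side of the membrane arm, read 13.22 (siTet2/3) and 12.65 (control), a difference of 0.56. RefSeq lists a copy under the name Ndufa10l1, which read 11.15 (siTet2/3) and 10.88 (control). Probes of such copies can bind both transcripts, so the values of these 2 genes are uncertain. At the other end Ndufa11, a subunit of the membrane arm, read 8.82 on the siTet2/3 array and 9.34 on the control array, and Ndufa2 read 5.78 (siTet2/3) and 6.18 (control). Ndufab1, the mitochondrial acyl carrier protein, differed by -0.10, and Ndufa13, also known as a cell death regulator, by 0.11.

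The Ndufb series builds the outer part of the membrane arm, where protons are pumped. Of its 10 genes, 7 were below 0, as were 55.0% of all named genes above background, and the median was -0.15. Ndufb2 read 7.45 log2 units on the siTet2/3 array and 8.08 on the control array. Ndufb7 read 6.27 (siTet2/3) and 6.90 (control). On neither array did Ndufb2 or Ndufb7 exceed 8.31 log2 units, the limit from negative-control probes. Ndufb9 read 12.28 (siTet2/3) and 12.69 (control), a difference of -0.42. On the other side of 0, Ndufb3 read 12.21 on the siTet2/3 array and 11.94 on the control array, and Ndufb6 differed by 0.23. Ndufb10 and Ndufb11 differed by 0.05 and -0.06. Ndufb6 and Ndufb10 did not exceed 8.31 log2 units on either array. The 4 other accessory subunits were spread on both sides: Ndufs4, whose loss causes a mitochondrial encephalopathy in mice and humans, differed by -0.50, and Ndufs5 by 0.49, while Ndufc2 and Ndufv3 differed by 0.07 and 0.05.

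The 6 assembly factors did not differ by 1.5-fold, and 4 of them were below 0. Ndufaf7, a methyltransferase that modifies a core subunit, read 5.10 log2 units on the siTet2/3 array and 5.64 on the control array, both close to background. Ndufaf8, the partner of the hydroxylase Ndufaf5, read 8.71 (siTet2/3) and 8.16 (control), while Ndufaf5 itself read 7.94 (siTet2/3) and 8.10 (control). Ndufaf8 and its partner therefore lay on opposite sides of 0. Ndufaf4, which acts early in assembly, differed by 0.26, Ndufaf1 by -0.17 and Ndufaf6 by -0.11. Without the assembly factors the median of complex I was -0.10. Ndufa4 read 12.19 (siTet2/3) and 12.08 (control), whereas its paralog Ndufa4l2, a target of HIF in hypoxic cells, read 4.10 (siTet2/3) and 4.13 (control), below background on both arrays.

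**Figure D2:**
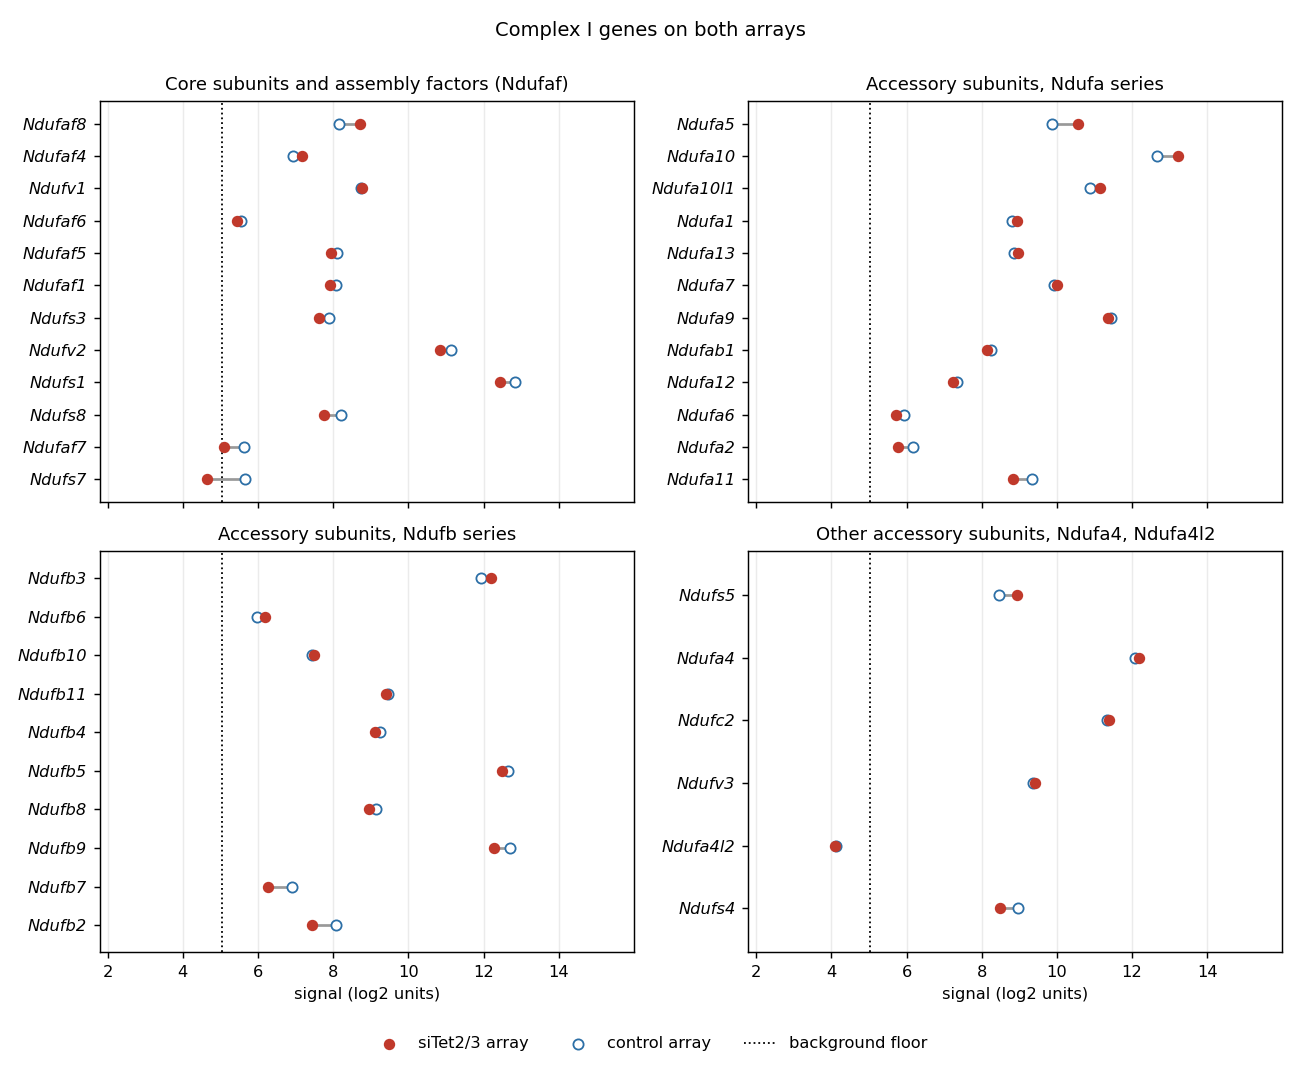
Signal (log2 units) of the 40 complex I genes, a row per gene, with the siTet2/3 array as filled points and the control array as open circles. The dotted line is the background limit of 5.04 log2 units, which Ndufa4l2 does not reach on either array and Ndufs7 does not reach on the siTet2/3 array (4.63).

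Complex II, succinate dehydrogenase, is the member of the chain that also works in the citric acid cycle and has no subunit from mitochondrial DNA. None of its 4 genes differed by 1.5-fold. Sdha, the flavoprotein that oxidises succinate, read 11.18 log2 units on the siTet2/3 array and 10.97 on the control array. Sdhb, the iron-sulphur subunit, read 11.05 (siTet2/3) and 10.77 (control). Sdhd, a membrane anchor, read 11.19 (siTet2/3) and 10.93 (control). These 3 genes were 1.16-fold, 1.21-fold and 1.19-fold higher on the siTet2/3 array, and Sdhc, the other anchor, was 1.16-fold lower (siTet2/3 8.27, control 8.48). The median of the 4 was 0.23, while their mean was 0.13.

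Complex III, the cytochrome bc1 complex, had 2 of 8 genes lower by 1.5-fold and 0 higher, with a median difference of -0.09 log2 units. Over all named genes above background 13.2% were lower and 8.63% higher, and 8 genes are few to set beside them. Uqcrfs1, which encodes the Rieske iron-sulphur protein that hands electrons to cytochrome c1, read 9.16 log2 units on the siTet2/3 array and 9.94 on the control array. Uqcrc1, a core protein related to mitochondrial processing peptidases, read 8.14 (siTet2/3) and 8.76 (control). Uqcrc2, the core protein that pairs with Uqcrc1, read 11.03 (siTet2/3) and 10.90 (control), so the 2 core genes differed in opposite directions, by -0.62 and 0.14. The 5 small subunits lay between -0.31 and 0.32. Among them Uqcrq read 10.10 on the siTet2/3 array and 10.41 on the control array, and Uqcr10 read 9.33 (siTet2/3) and 9.01 (control). Uqcr11 differed by 0.28, Uqcrh, the hinge protein that contacts cytochrome c1, by -0.12 and Uqcrb by -0.05.

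Complex IV, cytochrome c oxidase, has its catalytic subunits encoded by mitochondrial DNA, so the genes here encode the subunits that surround them. Of the 14 genes, 10 were above background, with 1 lower by 1.5-fold, 0 higher and a median difference of -0.18 log2 units. The median was -0.12 after centring and -0.13 with the trend on level taken out. Shifts of this size could not bring it to 0 and so are no test of it. With no background limit, all 14 genes counted, the median was -0.09. Cox8a, a small membrane subunit, read 12.05 log2 units on the siTet2/3 array and 12.70 on the control array. Cox5a, which binds a thyroid hormone metabolite, read 11.54 (siTet2/3) and 11.94 (control). Cox4i1, the subunit to which ATP binds as an inhibitor, read 8.70 (siTet2/3) and 8.95 (control). These 3 and Cox5b, Cox6b1 and Cox7a2l were below 0. Cox7b, Cox7a2 and Cox6c were above it, by 0.15, 0.09 and 0.07, and Cox6a1 read 13.17 on both arrays. Isoforms used in muscle, lung or testis were below background on both arrays: Cox4i2 (siTet2/3 2.53, control 2.50), Cox6a2 (siTet2/3 2.63, control 2.28), Cox8b (siTet2/3 4.22, control 3.53) and Cox8c (siTet2/3 4.40, control 4.99). Their differences were not counted.

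Complex V, the ATP synthase, held the largest differences of both signs among the 74 oxidative phosphorylation genes above background on both arrays. Of its 14 genes, 2 were 1.5-fold higher, 1 was lower and 11 were neither, and the median difference was 0.02 log2 units. The 4 genes of the catalytic F1 sector had a median of -0.02: Atp5f1b, the catalytic beta subunit, read 15.45 log2 units on the siTet2/3 array and 15.50 on the control array, Atp5f1a, the alpha subunit, differed by 0.00 and Atp5f1d of the central stalk by -0.10. Atp5f1e, also of the central stalk, read 10.23 (siTet2/3) and 9.79 (control), a difference of 0.44.

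The proton-carrying ring of the ATP synthase is built from c subunits, for which several genes encode the same mature protein with different import sequences. Atp5mc1 read 10.64 log2 units on the siTet2/3 array and 11.77 on the control array, and Atp5mc2 read 11.90 (siTet2/3) and 12.20 (control). Only these 2 c subunit genes were among the 80. Both were lower on the siTet2/3 array, Atp5mc1 by 2.19-fold and Atp5mc2 by 1.23-fold. The peripheral stalk, which keeps the F1 sector from turning with the ring, went both ways. Atp5po, the oligomycin sensitivity protein at its top, read 9.07 on the siTet2/3 array and 8.17 on the control array, and Atp5pb differed by 0.20. Atp5pf read 11.67 (siTet2/3) and 12.01 (control) and Atp5pd differed by -0.27. The 3 remaining membrane subunits were above 0: Atp5mg, which in yeast acts in joining ATP synthase dimers, read 7.50 (siTet2/3) and 6.91 (control), Atp5mk differed by 0.22 and Atp5mf by 0.15. Atp5mg has 8 pseudogenes and 3 further copies in RefSeq, Atp5mc1 has 2 and 2, Atp5mc2 has 4 and 2, and Atp5po has 1 and 0. Whether probes also bind transcripts of these was not tested. Atp5if1, the inhibitor that stops the enzyme from splitting ATP, read 11.11 (siTet2/3) and 11.08 (control).

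**Figure D3:**
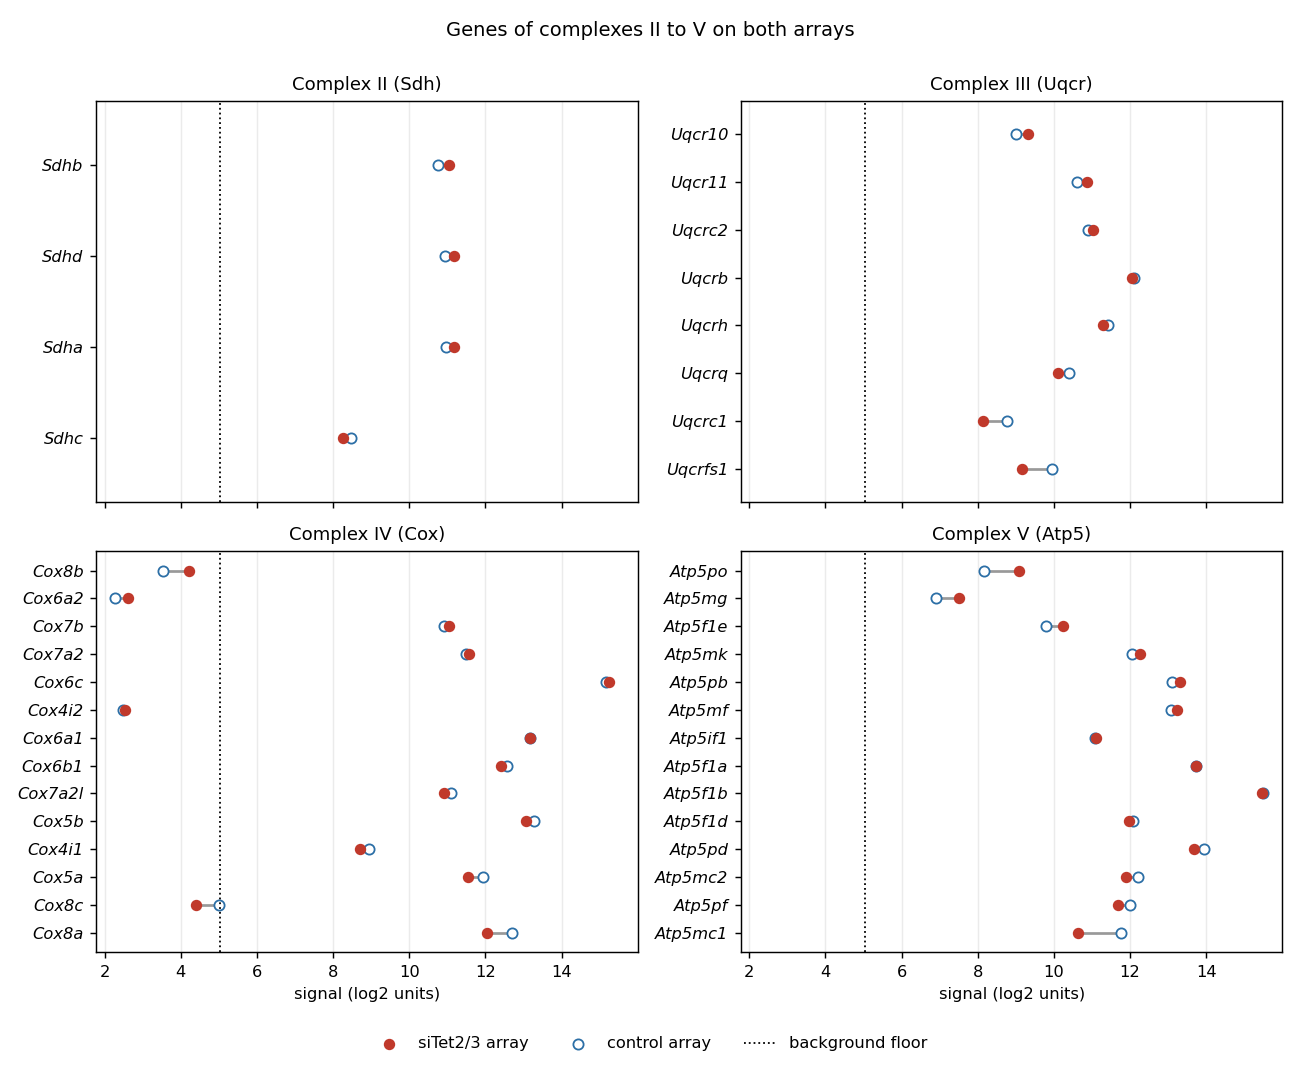
Signal (log2 units) of the genes of complexes II to V, a row per gene, with the siTet2/3 array as filled points, the control array as open circles and the background limit as a dotted line. Atp5mc1 and Uqcrfs1 show the widest gaps with the siTet2/3 array lower, Atp5po the widest with it higher, and Cox4i2, Cox6a2, Cox8b and Cox8c lie left of the limit.

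**Figure D4:**
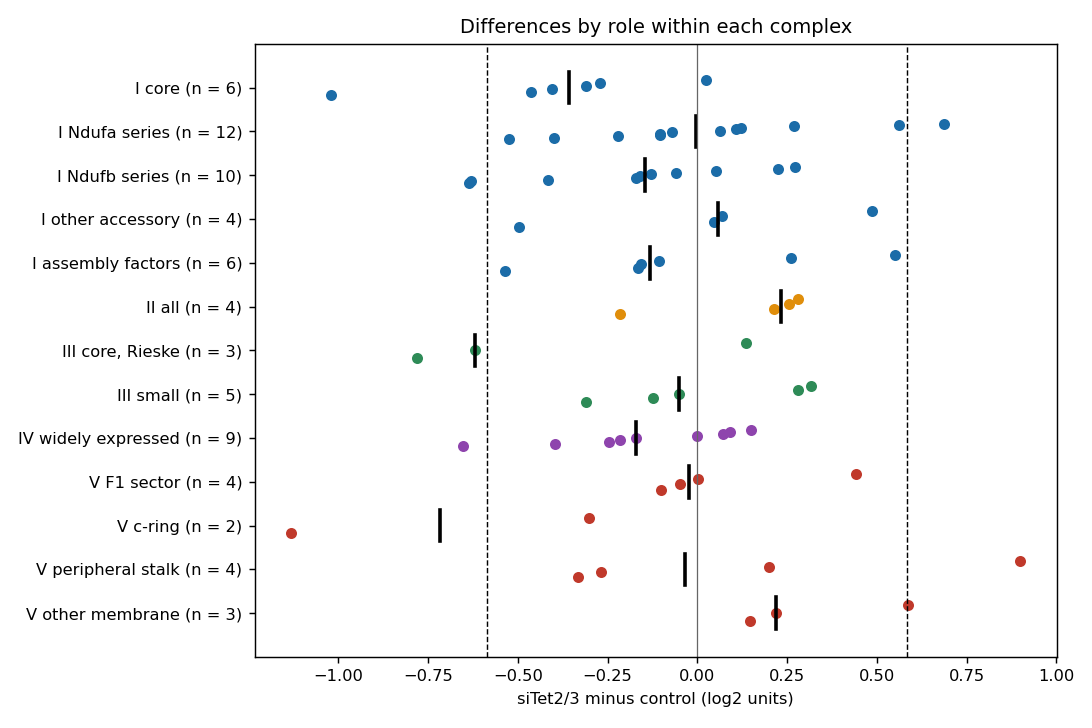
Differences (siTet2/3 minus control, log2 units) of genes above background by role within each complex (Ndufa4, Cox7a2l and Atp5if1 are not drawn), a point per gene, with the median as a black bar and 1.5-fold as dashed lines. The c-ring of complex V (2 genes, median -0.72), the core and Rieske proteins of complex III (-0.62) and the core subunits of complex I (-0.36) have the lowest medians, while complex II (0.23, or 0.25 for its catalytic subunits and 0.02 for its anchors) and the other membrane subunits of complex V (0.22) have the highest.

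Other genes of the pathway were described in the same way, for lists outside the symbols above. Over all named genes above background, the shares to set beside each list were 8.63% higher and 13.2% lower. Of 34 further assembly factor genes above background, 2 were 1.5-fold higher, 6 were lower and 26 were neither, with a median difference of -0.11 log2 units. Tmem70, which acts in assembly of the c-ring of ATP synthase, read 5.38 log2 units on the siTet2/3 array and 6.60 on the control array, and Coa7, a complex IV factor, read 6.18 (siTet2/3) and 5.21 (control). Among 20 genes of electron carriers and ubiquinone synthesis, 0 were higher, 2 were lower and 18 were neither, with a median of -0.07. The lower genes were Coq10b and its paralog Coq10a, which read 4.36 (siTet2/3, below background) and 5.05 (control), so that its decrease has a bound of only 1.01-fold. Coq10b, a ubiquinone-binding protein, read 11.27 (siTet2/3) and 11.98 (control) and Etfdh, which feeds electrons from fatty acid oxidation into ubiquinone, read 7.88 (siTet2/3) and 7.40 (control). Cytochrome c (Cycs) read 9.72 on the siTet2/3 array and 10.28 on the control array.

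In the citric acid cycle and pyruvate dehydrogenase 0 of 22 genes were higher, 3 were lower and 19 were neither, with a median of -0.08 log2 units. Pdhb, a subunit of pyruvate dehydrogenase, read 9.00 (siTet2/3) and 9.86 (control), and Idh2, the mitochondrial NADP-dependent isocitrate dehydrogenase, read 10.04 (siTet2/3) and 9.50 (control). For protein import and organisation of the inner membrane 0 of 34 genes were higher, 5 were lower and 29 were neither, with a median of -0.06, from Timm10 (siTet2/3 3.98, control 5.21, among the 5 lower as measured but with a bound of only 1.13-fold) to Chchd3 of the cristae junctions (siTet2/3 11.70, control 11.29).

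Mitochondrial ribosomal proteins, which make the subunits encoded by mitochondrial DNA, had 2 of 62 genes higher, 9 lower and 51 neither, with a median of -0.09. Their extremes were Mrpl57 (siTet2/3 9.99, control 11.32 log2 units) and Mrpl23 (siTet2/3 5.88, control 5.17). Mitochondrial carriers had 3 of 26 genes higher, 4 lower and 19 neither, with a median of -0.12, from Slc25a39, a glutathione importer (siTet2/3 8.17, control 9.96), to Slc25a33, a pyrimidine nucleotide carrier (siTet2/3 5.81, control 5.00, at least 1.71-fold higher). Cytosolic ribosomal proteins, which lie outside the mitochondrion, had 0 of 67 genes higher, 3 lower and 64 neither, with a median of -0.15, from Rpl29 (siTet2/3 12.59, control 13.49) to Rpl22 (siTet2/3 17.00, control 16.62). The share of genes at least 1.5-fold apart ran from 4.48% for cytosolic ribosomal proteins to 26.9% for mitochondrial carriers. It was 14.7% for import and inner membrane genes and 17.7% for mitochondrial ribosomal proteins, beside 21.8% of all named genes above background. These shares are not adjusted for signal, whose median on the siTet2/3 array was 14.75 for cytosolic ribosomal proteins and 7.75 for carriers. Rpl4, Rpl21, Rpl31, Rplp1 and Rps29 read the same on both arrays, at 18.85 to 19.93. The median differences of all these lists lay between -0.15 and 0, and no list was tested against another.

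**Figure D5:**
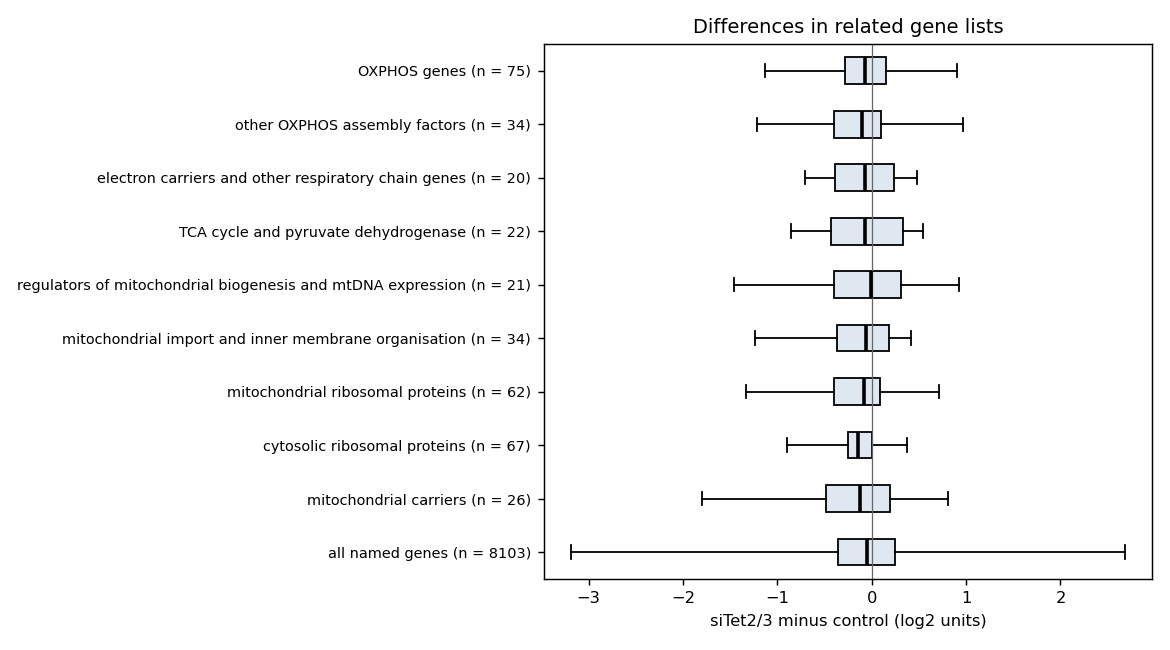
Differences (siTet2/3 minus control, log2 units) of genes above background in the oxidative phosphorylation (OXPHOS) genes, the related lists and all named genes, with the median as a black bar, the quartiles as a box and whiskers to the lowest and highest gene. All medians lie between -0.15 and 0, with -0.07 for the 75 oxidative phosphorylation genes and -0.05 for all 8103 named genes.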

How the data were processed

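The labels put 1 array in the siTet2/3 group and 1 in the control group, by genotype. The authors deposited log2 signals, 1 column for each array. RMA (background correction, quantile scaling and summary of probes) and the Transcriptome Analysis Console appear in the submitters' processing notes with no version. No genome build is given in the sources used here. The deposited table held 24834 rows, of which 15049 carried 1 symbol in the platform annotation (15037 genes, probes of a gene averaged); each of the 80 genes had a single probe, and all 80 identifiers were found in RefSeq (GRCr8). There were 0 columns of unknown samples. Once sorted, the columns were nowhere more than 0.151 log2 units apart, so the arrays had been scaled to nearly the same distribution, which hides a difference in total RNA per cell.

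From these values the difference of log2 signals was taken per gene, with no test, since each group had 1 array. Named were Ndufs1, Sdha and Uqcrc1, every gene at least 1.5-fold apart, the largest increases and decreases per complex (up to 3 each) and the extremes of each related list; other genes were named after their values were seen. The genes and lists were chosen with earlier results of these data known. Alternatives were other background limits, centring, removal of a lowess trend (fraction 0.3), the brightest probe, other fold limits, means, and leaving out assembly factors or the largest difference, and, added after seeing the data, values below the background limit set to it. Calculations used Python 3.11.15, numpy 2.4.6, pandas 2.3.3 and statsmodels 0.14.6, and the procedure was tested on simulated data. Promoter sequences are RefSeq's (GRCr8).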

Additional observations from a re-analysis of the deposited data

How the results depend on the processing

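The count of genes at least 1.5-fold higher was 3 and that of lower genes 7. Centring on the median difference and removal of the trend on level each gave 5 higher and 4 lower. Centring adds 0.05 log2 units to every difference, and removal of the trend changed those of the 75 genes by -0.03 to 0.08. A 2-fold limit gave 0 higher and 2 lower, of which Ndufs7 has a bound of 1.53-fold. With values below the background limit set to it, an alternative chosen after seeing the data, 1.5-fold gave 3 higher and 7 lower and 2-fold gave 0 and 1. A limit of 0.32 log2 units gave 7 and 16. A background limit of 8.31 log2 units, from negative-control probes, kept 58 genes and gave 2 higher and 4 lower; it also moved the median of complex I to 0.046. The mean of complex II was 0.13, beside a median of 0.23. Under the other alternatives tried, no count moved by over 1.5 times and no median of a complex by over 0.1 log2 units, the limit set because there are no replicates. The median of all oxidative phosphorylation genes ranged from -0.07 to 0.00. The brightest probe could change no value of these genes, which have 1 probe each. Among the related lists, the median of the regulators of mitochondrial biogenesis was -0.28 with no background limit and 0.31 with that of negative-control probes, beside -0.01. With the negative-control limit the median of mitochondrial ribosomal proteins was -0.25, beside -0.09. That of mitochondrial carriers was -0.01 with it and -0.02 with a background limit 1 log2 unit higher, beside -0.12. No paired analysis was possible because each group had 1 array. Signal near background limits what Ndufs7, Ndufaf7 and Ndufaf6 can show. Ndufb2, Ndufb7 and Atp5mg, also among the genes 1.5-fold apart, did not exceed 8.31 log2 units on either array. The same holds for further genes less than 1.5-fold apart.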

Other observations

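Regulators of mitochondrial biogenesis and of mitochondrial DNA expression went both ways. Of 21 genes above background, 2 were 1.5-fold higher on the siTet2/3 array, 3 were lower and 16 were neither, with a median difference of -0.01 log2 units. The share at least 1.5-fold apart was 23.8%, beside 21.8% of all named genes above background. Higher were Yy1, a zinc finger factor that binds many promoters of respiratory chain genes (8.47 on the siTet2/3 array and 7.55 on the control array), and Gabpa, the DNA-binding ETS subunit of GABP (siTet2/3 12.88, control 12.22). Lower were Esrra, the nuclear receptor ERR alpha (siTet2/3 4.83, below background, control 6.29, at least 2.38-fold lower), Polg, the mitochondrial DNA polymerase (siTet2/3 7.19, control 8.24), and Mterf1, a mitochondrial transcription terminator (siTet2/3 6.12, control 6.96). Nrf1, the gene of NRF1 (siTet2/3 9.64, control 10.08), and Gabpb1, another subunit gene of GABP (siTet2/3 9.74, control 10.24), were below 0 by less than 1.5-fold. The known regulators named above thus did not share a direction. On neither array did Esrra, Polg or Mterf1 exceed 8.31 log2 units, the limit from negative-control probes. Of the named genes above it, Yy1 and Gabpa were above 0 and Nrf1 and Gabpb1 below it. The median of the list was 0.31 with that limit.

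The small Tim chaperones, which escort membrane proteins across the space between the mitochondrial membranes, were looked at after their values were seen. Timm9 read 6.49 on the siTet2/3 array and 7.31 on the control array, Timm10b read 5.57 (siTet2/3) and 6.65 (control), and Timm13 read 4.95 (siTet2/3) and 5.99 (control) (at least 1.93-fold lower). Timm10, the usual partner of Timm9, is among the genes given above. Timm8a1 differed by -0.07 and Timm8b by 0.15, so the lower values were not shared by every member. Several of these signals lie near background.

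A split of the oxidative phosphorylation genes by whether RefSeq lists pseudogenes or further copies under their symbol was also made after the values were seen. Of the 42 with such a copy, all above background, 3 were 1.5-fold higher and 1 was lower, with a median of 0.06 log2 units. Of the 33 without one that were above background, 0 were higher and 6 were lower, with a median of -0.17. The genes at least 1.5-fold apart were 9.52% and 18.2% of the 2 groups, beside 21.8% of all named genes above background. Of all these named genes 8.63% were higher and 13.2% lower. The median signals on the siTet2/3 array were 10.73 and 9.40 log2 units in the 2 groups, and the sequences of the probes were not used here, so whether transcripts of copies add to the signal was not tested.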
